A study of Mus musculus with 2 samples.

Results

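The genes described here encode the machinery that docks, primes and fuses synaptic vesicles and other secretory vesicles with their target membranes. They were taken from the RNA-seq values of pooled dorsal root ganglion (DRG) neuron preparations by gene symbol: the synaptotagmins (Syt), syntaxins (Stx), VAMPs, the SNAP-25 family with Snap91, complexins (Cplx), synapsins (Syn), SV2 proteins, RIMs (Rims), Unc13 and Stxbp proteins, synaptophysin (Syp), Nsf, Napa and Napb. The rule was matched by 72 of the 24411 genes in the files, spread over 127 of 35034 RefSeq transcripts, and it used no measured value. Transcripts were summed to 1 value per gene. The 2 libraries were compared, each 1 pool of DRG neurons from 10 mice, so every gene has 1 value per group, with no replicates, and no difference between the groups could be tested.

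Both groups were male C57BL/6J mice aged 6 to 8 weeks. The alum mice were injected intraperitoneally with 50% alum, an aluminium salt adjuvant, on days 0 and 14, and the alum + KLH mice received the same alum together with KLH, the keyhole limpet hemocyanin, which is a foreign protein antigen from a mollusc. Thoracic and lumbar DRGs were collected on day 28. The sample title of the alum library calls it both naïve and alum alone, and it was read as alum-injected because the study's methods describe alum injections for these mice. The ganglia were digested with collagenase/dispase, spun over albumin to enrich neurons and depleted of B lymphocytes with beads. The preparation is therefore a neuron-rich mixture of cells and not a pure population, and mice cannot be told apart within a pool.

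SNARE proteins drive membrane fusion. A VAMP on the vesicle pairs with a syntaxin and a SNAP-25 family protein on the target membrane, and the complex zippers into a bundle of helices that pulls the membranes together. Synaptotagmins sense calcium, complexins hold and then promote the assembled complex, Stxbp and Unc13 proteins chaperone and prime syntaxin, RIMs tether vesicles beside calcium channels, and NSF with its SNAP adaptors takes spent complexes apart. DRG neurons use this machinery to release glutamate and peptides at their central and peripheral endings, while the mRNA measured here comes mainly from their cell bodies. Other members of the same families serve traffic between Golgi, endosomes and lysosomes in every cell.

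The values are TPM, abundances of transcripts scaled to their length and to a library sum of 1000000, so levels can be compared between genes. A gene was called detected above 3 TPM. The difference between the pools is given as log2 of (TPM + 1) in alum + KLH over (TPM + 1) in alum, which understates the change of low genes, and a positive value means higher in alum + KLH. Beside it stands the neighbour SD, the SD of the same log2 ratio over the 500 genes nearest in level, which describes these 2 libraries only. TPM keeps no read counts, so the number of reads behind each value is unknown. All 8 pan-neuronal markers read as a check of the tissue were above 3 TPM in both pools, with Tubb3 at 685 and 639.9 TPM and Stmn2 at 2496 and 2446 TPM in alum and alum + KLH. Glia were present too, since all 5 satellite glia markers passed in both pools with a summed 1699 and 1650.2 TPM, and 5 of 6 Schwann cell markers with 2169.9 and 2130.1 TPM. The 5 macrophage markers were all below 3 TPM and summed to 4.83 and 4.19 TPM, with Csf1r at 0.113 and 0.167 TPM. Fewer cells of a type and less RNA per cell cannot be told apart in such pools.

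The exocytosis genes were abundant and nearly level between the pools. Of the 72 genes, 60 were above 3 TPM in both pools, 83.3% of the list, and the other 12 were below it in both. Among all genes 46.9% passed in alum and 46.3% in alum + KLH. The 72 genes together made up 1.31% of all TPM in alum and 1.34% in alum + KLH, and the 5 highest members accounted for 51.4% and 52.5% of that. Above 100 TPM stood 23 of the 72 members, the same 23 in both pools, beside 8.83% of all genes in alum and 8.80% in alum + KLH. None of the 60 detected members was 1.5-fold or more apart between the pools, where 2.56% of the 11648 genes that passed 3 TPM in either pool were (1% higher and 1.55% lower in alum + KLH). The median log2 ratio was -0.028 over the 60 members and -0.020 over all 11648. Of the 60, 25 had a higher value and 35 a lower value in alum + KLH, and 41.7% of members against 43.6% of all these genes had a higher value. The median level of the 60 members was 46.6 TPM in alum and 44.6 TPM in alum + KLH, beside 24.2 and 23.5 TPM over the 11648 genes.

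**Figure D1:**
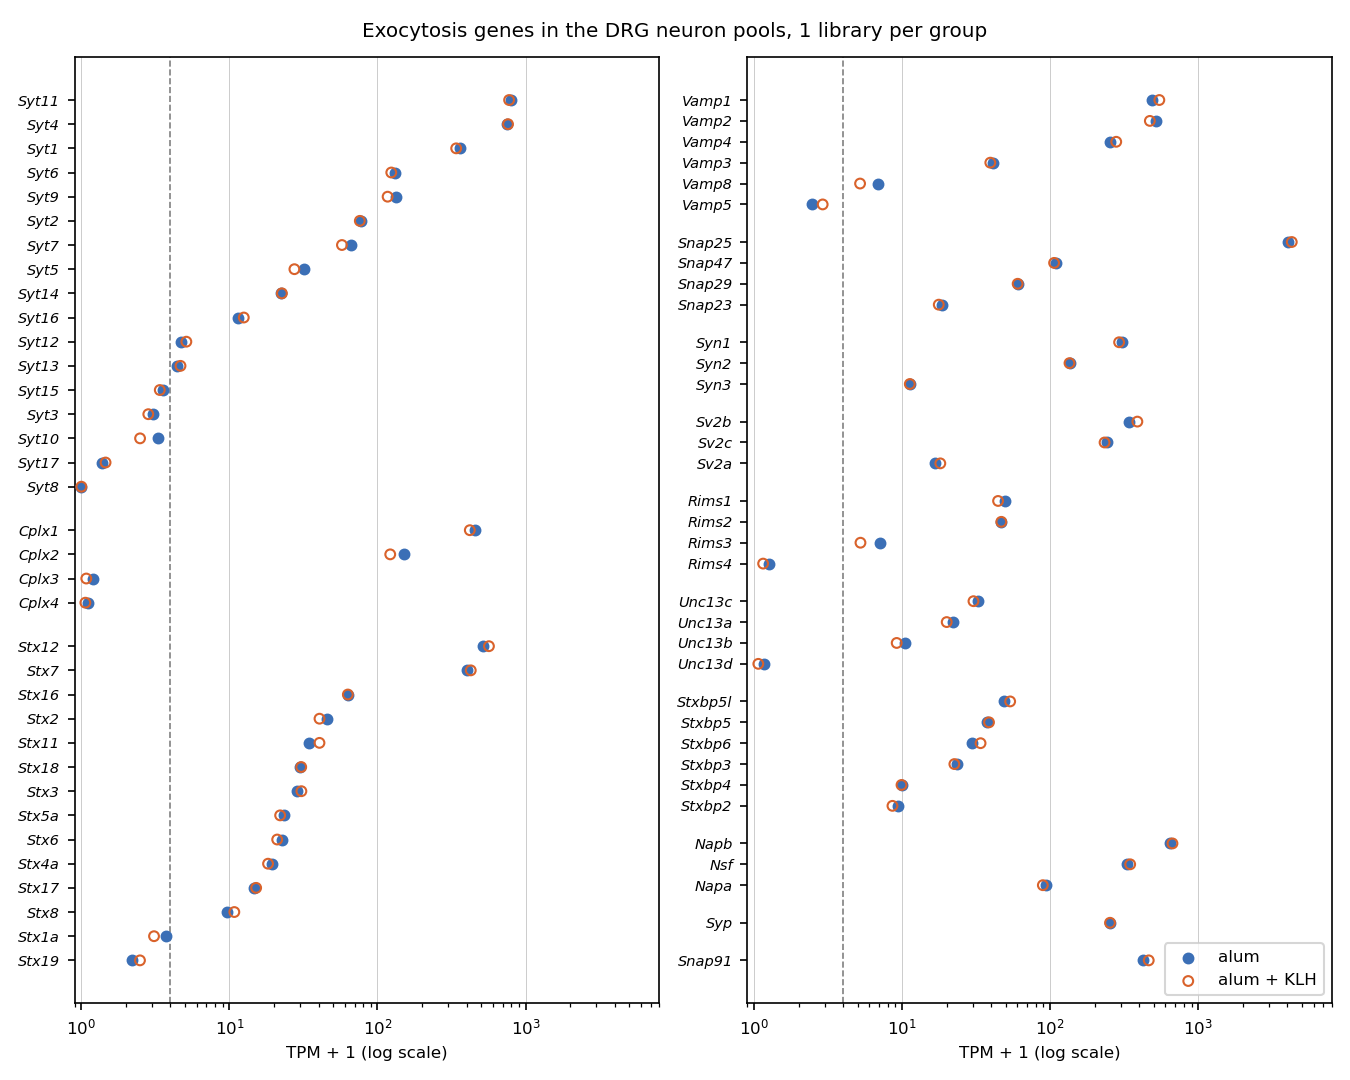
Level of 70 of the genes in the alum pool (filled circles) and the alum + KLH pool (open circles), as TPM + 1 on a log scale and grouped by family, with 1 library per group and no error bars. The dashed line marks 3 TPM, and the 2 circles of a gene overlap or nearly touch for most genes, with Snap25 farthest to the high end.

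Snap25 encodes SNAP-25, the plasma membrane SNARE that contributes a pair of helices to the fusion complex of neurons. It lies at chr2:136713453-136782428 on the plus strand of GRCm38 and was the highest member, with 4057 TPM in the alum pool and 4279 TPM in the alum + KLH pool. Only 8 genes of the whole alum library and 9 of the alum + KLH library were higher. Its log2 ratio was 0.077, within the neighbour SD of 0.16. Its relatives were far lower. Snap47 stood at 108 and 105 TPM in alum and alum + KLH, Snap29, which serves fusion of autophagosomes among other steps, at 60.0 and 59.3 TPM, and Snap23, the widely expressed counterpart of SNAP-25, at 17.5 and 16.7 TPM. Snap25 made up 95.6% and 95.9% of the family's TPM, and exceeded Snap23 232-fold in alum and 257-fold in alum + KLH.

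For Snap25, 2 transcripts are listed, which differ in which of a pair of alternative versions of the fifth exon they carry. These exons encode part of the protein with its palmitoylated cysteines, the site at which SNAP-25 is anchored to the membrane. Both exons are 118 bases of coding sequence, and they differ at 31 positions (73.7% identity). They are shown 5′ to 3′ from the GENCODE transcripts of GRCm38, since they are the part of the gene that separates the 2 values, with capitals at the bases that differ:
NM_011428 exon 5, chr2:136770057-136770174, plus strand: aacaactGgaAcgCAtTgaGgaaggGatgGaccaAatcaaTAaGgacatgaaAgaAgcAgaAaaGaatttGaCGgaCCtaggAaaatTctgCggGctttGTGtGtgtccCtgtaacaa
NM_001291056 exon 5, chr2:136769743-136769860, plus strand: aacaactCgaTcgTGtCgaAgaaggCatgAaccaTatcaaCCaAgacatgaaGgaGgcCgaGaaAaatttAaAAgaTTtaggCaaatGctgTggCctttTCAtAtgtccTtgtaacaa
The transcript with the downstream exon, NM_011428, known as the SNAP-25b form that prevails in the adult brain, was at 3953 TPM in alum and 4153 TPM in alum + KLH. The transcript with the upstream exon, NM_001291056, the SNAP-25a form, was at 104 and 126 TPM. The downstream form thus took 97.4% and 97.1% of the gene's TPM, nearly the same share in both pools.

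Syntaxins are the other target-membrane SNAREs, and here forms of the endosomes were the highest. Stx12, which acts on recycling endosomes, was the highest with 517 TPM in the alum pool and 565 TPM in the alum + KLH pool. Stx7, a late endosome and lysosome SNARE, followed with 399 and 426 TPM. They made up 41.9% and 32.3% of the syntaxin TPM in alum, and 43.2% and 32.6% in alum + KLH. Stx1a (chr5:135023482-135051100, plus strand), a syntaxin of synaptic vesicle fusion, was at 2.75 and 2.096 TPM, below 3 TPM in both pools.

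The remaining syntaxins lay in a band of moderate levels. Stx16, of the trans-Golgi network, was at 62.5 and 62.1 TPM in alum and alum + KLH, and Stx2, a plasma membrane form, at 44.6 and 39.6 TPM. Stx3 and Stx4a, also of the plasma membrane, were at 27.8 and 29.6 TPM and at 18.5 and 17.2 TPM. Stx11, known for granule release in cytotoxic lymphocytes, was at 33.3 and 39.6 TPM, with the highest log2 ratio of the 60 detected members, 0.24 against a neighbour SD of 0.15. Stx5a, Stx6, Stx17 and Stx18, of the Golgi, the trans-Golgi network, autophagosomes and the endoplasmic reticulum, ranged from 13.7 TPM for Stx17 in alum to 29.5 TPM for Stx18 in alum + KLH. Stx8, of late endosomes, was at 8.59 and 9.79 TPM, and Stx19 was below 3 TPM at 1.21 and 1.49 TPM. Of the 13 syntaxins above 3 TPM, 7 had a higher and 6 a lower value in alum + KLH, with log2 ratios from -0.17 to 0.24.

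The VAMPs are the vesicle-side SNAREs, and Vamp1 and Vamp2, the forms of synaptic vesicles, were at like levels. Vamp2 was at 518 TPM in the alum pool and 469.8 TPM in the alum + KLH pool, and Vamp1 at 488 and 545 TPM. Vamp2 was thus the higher of the pair in alum and Vamp1 in alum + KLH. The Vamp1 to Vamp2 ratio of TPM was 0.943 in alum and 1.16 in alum + KLH. Between the pools the log2 ratios were 0.16 (Vamp1) and -0.14 (Vamp2), each within its neighbour SD of 0.16 and 0.16. Since the order of the pair rests on reads being told apart, the 150 coding bases over which Vamp1, Vamp2 and Vamp3 are most alike are shown 5′ to 3′ on the coding strand, from GENCODE transcripts of GRCm38. Capitals mark bases that differ from Vamp2, and positions count from 1 at the start codon:
Vamp2 (NM_009497, chr11:69088490-69092384, plus strand), coding bases 97 to 246: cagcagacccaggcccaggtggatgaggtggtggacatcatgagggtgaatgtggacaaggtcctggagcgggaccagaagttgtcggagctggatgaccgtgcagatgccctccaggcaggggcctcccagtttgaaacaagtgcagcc
Vamp1 (NM_009496, chr6:125215551-125245964, plus strand), coding bases 103 to 252: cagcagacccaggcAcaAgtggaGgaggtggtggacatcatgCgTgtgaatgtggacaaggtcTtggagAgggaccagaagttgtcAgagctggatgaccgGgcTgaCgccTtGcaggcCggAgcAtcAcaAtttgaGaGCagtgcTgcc
Vamp3 (NM_009498, chr4:151047300-151057963, minus strand), coding bases 58 to 207: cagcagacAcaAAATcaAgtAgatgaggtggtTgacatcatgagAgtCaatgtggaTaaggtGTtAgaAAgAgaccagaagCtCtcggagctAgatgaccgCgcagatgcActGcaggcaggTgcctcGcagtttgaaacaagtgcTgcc
In this window Vamp1 differs from Vamp2 at 22 bases and Vamp3 at 26, scattered so that no stretch of 31 bases of the annotated Vamp1 or Vamp2 transcripts occurs in a transcript of another gene. Vamp3, the widely expressed form, was far below both at 40.2 and 38.4 TPM in alum and alum + KLH.

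Vamp4, which recycles between endosomes and the trans-Golgi network, was at 254 and 278 TPM. Vamp8, an endosome and granule form, was at 5.87 TPM in the alum pool and 4.20 TPM in the alum + KLH pool, a log2 ratio of -0.40 against a neighbour SD of 0.23. Vamp5 was below 3 TPM at 1.48 and 1.90 TPM, and Vamp7 was not analysed here. The family therefore ran from a few TPM to over 100 TPM, and Vamp1, Vamp2 and Vamp4 held nearly all of it in both pools, with 37.3%, 39.6% and 19.4% of its TPM in alum and 40.7%, 35.1% and 20.8% in alum + KLH.

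Among the 17 synaptotagmins the forms that sense calcium for fast release were not the most abundant. Syt11 and Syt4, atypical members whose calcium-binding domain carries a substitution, led with 793 TPM in the alum pool and 774 TPM in the alum + KLH pool for Syt11 and 747 and 760.3 TPM for Syt4 in the same order. Syt1, the calcium sensor of fast release (chr10:108497650-109010982, minus strand), was at 359 and 339 TPM. Syt9 and Syt2, which also serve as fast sensors, were at 133 and 116 TPM and at 76.8 and 74.98 TPM. Syt11 was 2.21 and 2.28 times Syt1, and Syt1 was 4.67 and 4.52 times Syt2. The order Syt11, Syt4, Syt1 was the same in both pools. Syt11 and Syt4 lay close together, and the neighbour SD, which describes differences between pools, gives no error for their order. Syt7, a slow sensor with high calcium affinity, was at 64.8 and 56.5 TPM, a log2 ratio of -0.19 against a neighbour SD of 0.13. Syt9 (-0.19 against 0.12) and Syt5 (-0.22 against 0.18, at 30.9 and 26.5 TPM) also had a lower value in alum + KLH by more than their neighbour SD, and Syt1, at -0.081, did not pass its SD of 0.13. Syt6 was at 131 and 122.9 TPM, and Syt14 and Syt16 were between 10.4 and 21.6 TPM.

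Of the 17 synaptotagmins, 5 were below 3 TPM in both pools. Syt12 and Syt13 lay just above this threshold at 3.70 and 4.12 TPM and at 3.41 and 3.67 TPM in alum and alum + KLH. Just below it were Syt15 at 2.57 and 2.39 TPM, Syt10 at 2.30 and 1.49 TPM and Syt3 at 2.03 and 1.83 TPM. Syt17 was at 0.368 and 0.457 TPM, and Syt8 was listed at 0 on all 4 of its transcripts in both libraries, the only member listed at 0.

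Complexins bind the assembled SNARE complex, and of the 4 only the forms of conventional synapses were detected. Cplx1 was at 457 TPM in the alum pool and 419 TPM in the alum + KLH pool, a log2 ratio of -0.12 within the neighbour SD of 0.16. Cplx2 stood at 149 TPM in alum and 121 TPM in alum + KLH. This log2 ratio, -0.30, was 2.41 times the neighbour SD of 0.12 and the lowest among the 23 members whose mean was above 100 TPM. Both complexins thus had the lower value in alum + KLH. Cplx3 and Cplx4, known from ribbon synapses of the retina, were at 0.195 and 0.0796 TPM and at 0.112 and 0.0642 TPM.

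Among proteins of the vesicle itself, Sv2b was the highest SV2 form and had the higher value in alum + KLH. The SV2 proteins are transporter-like glycoproteins of synaptic vesicles. Sv2b was at 337 TPM in the alum pool and 387 TPM in the alum + KLH pool, and its log2 ratio of 0.20 exceeded the neighbour SD of 0.13. Sv2c was at 241 and 232 TPM, and Sv2a, the form that is widespread in the brain, at 15.8 and 17.1 TPM. Sv2b was 21.3 and 22.6 times Sv2a. Synaptophysin, an abundant protein of the vesicle membrane, differed least among these, with Syp at 253 TPM in alum and 252 TPM in alum + KLH. The synapsins, which tether vesicles to one another and to actin, kept the order Syn1, Syn2, Syn3 in both pools at 304 and 291 TPM, 136 and 134 TPM and 10.3 and 10.3 TPM, with log2 ratios of -0.062, -0.021 and 0.00098.

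Snap91, which the rule holds by its symbol, encodes the clathrin assembly protein AP180 of vesicle endocytosis and is no SNARE. It was at 423 TPM in the alum pool and 462 TPM in the alum + KLH pool, a log2 ratio of 0.12 against a neighbour SD of 0.16. The values of its 6 transcripts were concentrated on NM_001277985 and NM_001277982.

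The Stxbp proteins bind syntaxins or their complexes. Stxbp2 and Stxbp3, the relatives used in non-neuronal secretion, were at 8.37 and 7.60 TPM in alum and alum + KLH and at 22.6 and 21.5 TPM in the same order. The tomosyns Stxbp5 and Stxbp5l, which compete with VAMPs for syntaxin, were at 36.6 and 37.6 TPM and at 47.8 and 52.6 TPM. Stxbp6, or amisyn, was at 28.6 and 32.8 TPM, with a log2 ratio of 0.19 against a neighbour SD of 0.16. Stxbp4 was at 8.96 and 8.90 TPM. All 7 Stxbp genes were above 3 TPM, 3 with a higher and 4 with a lower value in alum + KLH.

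The Unc13 and RIM families were the lowest of the release machinery, with a summed 62.2 and 56.5 TPM for Unc13 and 100.2 and 93.5 TPM for RIMs, beside 2381 and 2317 TPM for synaptotagmins. Of the Unc13 genes, whose proteins open syntaxin for SNARE assembly, Unc13c was at 31.5 TPM in the alum pool and 29.3 TPM in the alum + KLH pool. Unc13a, the main form of brain synapses, was at 21.2 and 19.0 TPM and Unc13b at 9.37 and 8.18 TPM. The value of each of these 3 was lower in alum + KLH, with log2 ratios from -0.18 to -0.10, all within the neighbour SD. Unc13d, known from granule release of cytotoxic lymphocytes, was at 0.158 and 0.0677 TPM, below 3 TPM in both pools. Of the RIMs, Rims1 and Rims2 were at 48.5 and 43.4 TPM and at 45.4 and 45.7 TPM, and the log2 ratio of Rims1, -0.16, passed the neighbour SD of 0.13. Rims1 was the higher of the pair in alum and Rims2 in alum + KLH, and in each pool they lay close together, so nothing is read from their order. The short forms Rims3 and Rims4 were at 6.05 and 4.23 TPM and at 0.261 and 0.151 TPM. Rims3 had the lowest log2 ratio of the 60 detected members, -0.43 against a neighbour SD of 0.23.

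For disassembly of spent SNARE complexes, Nsf, the ATPase that does the work, was at 327 TPM in the alum pool and 346 TPM in the alum + KLH pool, and the log2 ratio of 0.080 was within the neighbour SD of 0.13. Its adaptors were uneven. Napb, the neuronal β-SNAP, was at 640.0 and 668 TPM and Napa, the widely expressed α-SNAP, at 92.2 and 88.2 TPM, so that Napb was 6.94 times Napa in alum and 7.58 times in alum + KLH.

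Differences between the pools were small at every level. Among the 23 members with a mean above 100 TPM the log2 ratios ran from -0.30 for Cplx2 to 0.20 for Sv2b, with an SD of 0.12, beside an SD of 0.16 over the 2155 genes of that level. With the limit lowered from 0.58 to 0.32 on the log2 scale 2 members passed, Rims3 and Vamp8, both with the lower value in alum + KLH and both at the low end of the detected range. Of the 11648 genes, 7.68% passed this limit, 2.29% with the higher and 5.39% with the lower value in alum + KLH. At 2-fold no member passed, beside 1.64% of genes, 0.695% higher and 0.944% lower. Past the neighbour SD were 11 of the 60 members, 18.3%, with 17.1% of the 11648 genes as background, a like share. They were Sv2b, Stx11 and Stxbp6 with higher values in alum + KLH, and Cplx2, Syt5, Syt7, Syt9, Rims1, Rims3, Stx2 and Vamp8 with lower values. Below 10 TPM the neighbour SD did not follow level smoothly. It was 0.23 for Rims3 and Vamp8 and 0.26 for Stxbp4, but 0.53 for Syt13, which was lower, and 0.52 for Stxbp2, which was higher. The ratios of Rims3 and Vamp8 would not pass an SD of 0.52, so their place among the 11 depends on which genes were nearest. Neuron markers differed too, and their part in these differences was not tested. Of the 8 pan-neuronal markers Rbfox3 had the lowest log2 ratio, -0.44, at 60.8 and 44.6 TPM, and Elavl4 the highest, 0.19. Of the markers of NF (large myelinated, neurofilament-rich) neurons, Spp1 went from 196 TPM in alum to 352 TPM in alum + KLH and Pvalb from 80.4 to 114 TPM. Cntnap2 was also higher in alum + KLH, with a log2 ratio of 0.15. Nefh, Ldhb and Ntrk3 were lower, at -0.068, -0.060 and -0.052, and the 6 had a median log2 ratio of 0.048. The medians were -0.078 over 4 markers of peptidergic and -0.17 over 4 of non-peptidergic nociceptors, and -0.19 over 4 of TH neurons. Gfra2 was a marker in both the non-peptidergic and the TH list, so these medians are not separate readings.

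**Figure D2:**
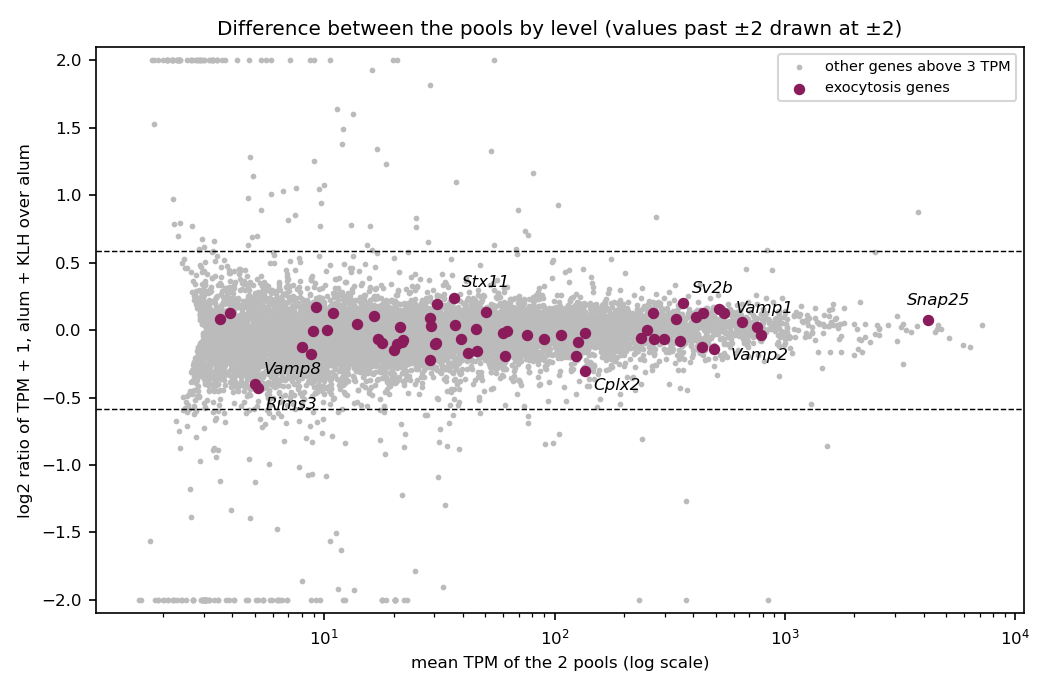
Difference between the pools for each gene that passed 3 TPM in either, plotted as the log2 ratio of TPM + 1 in alum + KLH over alum (vertical axis) against the mean TPM of the pools (log scale), with 1 library per group. All 60 exocytosis genes (dark points) lie between the dashed lines at 1.5-fold, from -0.43 for Rims3 to 0.24 for Stx11, and ratios of other genes past 2 in size are drawn at 2.

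Single transcripts passed the limit where gene totals did not. Of the 127 transcripts, 87 exceeded 3 TPM in either pool, and 10 of these were 1.5-fold or more apart, 4 with the higher and 6 with the lower value in alum + KLH. Over all 14215 such transcripts 8.51% were as far apart, 3.5% higher and 5.01% lower. All 10 belonged to genes with more than 1 listed transcript, where they were 20% of 50 members' transcripts beside 15.6% of all such transcripts. None of the 37 that are the only one of their gene passed, beside 3.25% of all such transcripts. The 10 were 2 each of Stx16 and Stx2 and 1 each of Rims2, Stx5a, Stxbp5l, Syn1, Syt6 and Syt7. The quantification by kallisto divides reads among transcripts that share most of their sequence, and how many reads fell on the stretches that separate them is not kept in TPM.

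Stx16 (chr2:174076308-174099771, plus strand) showed the largest exchange among the members. Its transcript NM_001102425 was at 53.0 TPM in alum and 26.7 TPM in alum + KLH, and NM_001102424 at 5.87 and 30.3 TPM. The former went from 84.9% to 43.1% of the gene's TPM and the latter went from 9.39% to 48.8%, while the sum over the 4 Stx16 transcripts had a log2 ratio of -0.0089. For Stx2 (chr5:128984557-129008574, minus strand), NM_007941 was at 30.99 TPM in alum and 20.9 TPM in alum + KLH, NM_001286033 at 10.7 and 3.10 TPM and NM_001286034 at 2.96 and 15.6 TPM. The last of these went from 6.64% to 39.5% of the gene, and the total had a log2 ratio of -0.17. In Rims2 (chr15:39198261-39684372, plus strand), NM_053271 was at 10.5 TPM in alum and 5.43 TPM in alum + KLH, 23.1% and 11.9% of the gene, with a log2 ratio of 0.0091 for the total. These were the 3 of 23 detected members with several transcripts in which a share moved by 10 percentage points or more, beside 22.5% of the 3506 such genes in the files.

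**Figure D3:**
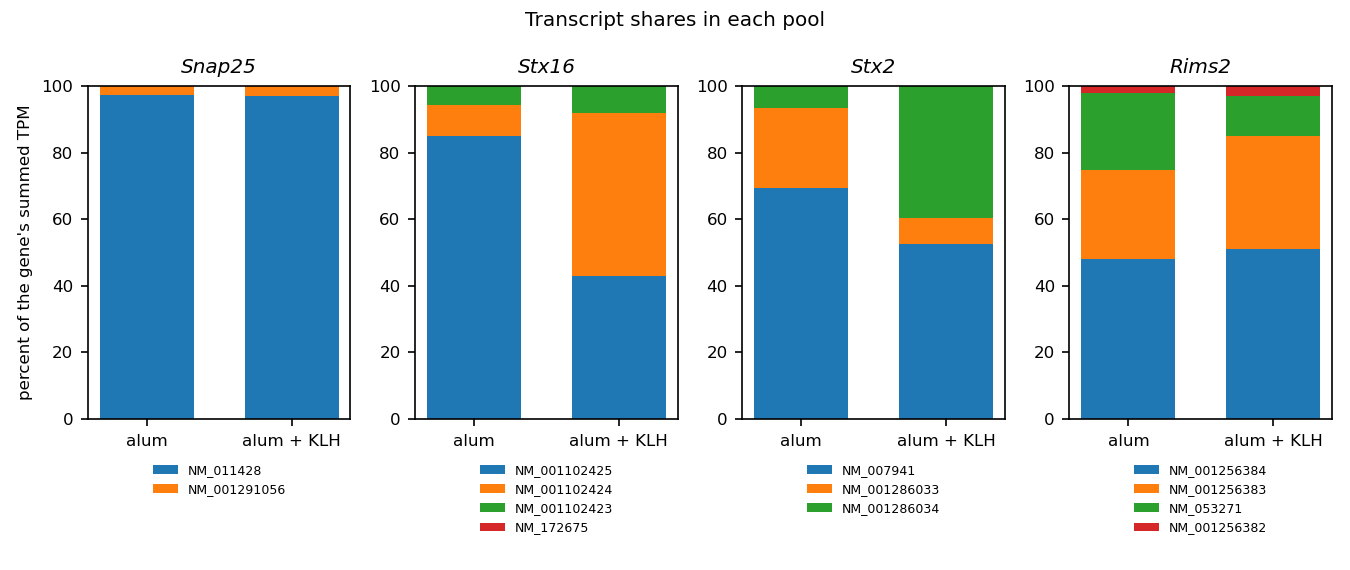
Share of each listed RefSeq transcript in the gene's summed TPM (percent, stacked bars from 0 to 100) in the alum and alum + KLH pools for Snap25, Stx16, Stx2 and Rims2, with 1 library per bar. Snap25 kept NM_011428 at 97.4% and 97.1%, whereas in Stx16 NM_001102425 went from 84.9% to 43.1%.

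Smaller shifts of transcript shares were seen elsewhere. In Stx5a, NM_019829 went from 10.6% to 20.6% of the gene, and in Snap23, NM_001177792 went from 27.9% to 35.8%. In Syt14 the leading transcript differed between the pools, since NM_181546 held 53.8% in alum and 47.6% in alum + KLH. Syt1 was split between NM_009306 at 191 TPM in alum and 170.1 TPM in alum + KLH and NM_001252342 at 166 and 167 TPM. Syt7, whose transcript NM_173068 was among the 10 past the limit at 5.14 and 2.63 TPM, had 92.1% and 95.3% on NM_173067. Sv2b had 97.6% and 97.4% on NM_001109753. In Rims1, 3 of the 6 entries carried the same value as each other in each library, 8.26 TPM in alum and 6.89 TPM in alum + KLH, so only their sum was read.

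Sequence shared with other genes limits a few totals. The share of a gene's 31-base stretches that also occur, on either strand, in annotated transcripts of other genes had a median of 0.328% over the 72 genes. Strand was ignored here, although the library was stranded. The share was over 5% for 10 of the genes. It was highest for Syp, at 33.1%, all shared with the predicted gene Gm14703. Syt12 shared 28.3%, Stxbp3 24.4%, all with its pseudogene Stxbp3-ps, and Stx18 19.8%. The pseudogene was listed at 2.73 and 2.86 TPM in alum and alum + KLH. Stx18, at 28.9 and 29.5 TPM, shared 18.0% with Nsg1, which was higher at 107 and 117 TPM. Gm14703 and the main partners of Syt7 and Syt4 have no listed value. The totals of these 4 genes, and of Syt7 with 15.9% and Syt4 with 12.3%, are uncertain to the extent that reads were assigned across genes.

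The rest of the exocytosis pathway was read from 9 lists of 120 further genes, all in the files. Of these, 102 were above 3 TPM in both pools. None of the 102 passed the limit of 1.5-fold on the log2(TPM + 1) scale, beside 2.56% of the 11648 genes, 1% higher and 1.55% lower. Vgf passed the limit with a pseudocount of 0.1 TPM or relative to Hprt. All 9 exocyst subunits and all 12 further Golgi and endosomal SNAREs were detected in both pools, led by Exoc5 at 138 and 141 TPM and Vti1b at 254 and 253 TPM in alum and alum + KLH. Of 8 vesicular transporters, which load transmitter into vesicles, 5 were detected, and the glutamate transporter Slc17a6 was the highest at 465 and 488 TPM, followed by Slc17a7 at 23.2 and 26.0 TPM. The acetylcholine transporter Slc18a3 and the GABA and glycine transporter Slc32a1 were listed at 0 in both pools. Among 15 other vesicle membrane proteins Synpr, a relative of synaptophysin, was at 965 and 960.4 TPM and Scamp1 at 506 and 566 TPM.

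Active zone scaffolds were low beside the highest SNAREs, such as Snap25, Vamp1, Vamp2, Stx12 and Stx7, while many other syntaxins lay within their range. Apba1 was the highest of 15 at 150.1 and 139 TPM and Lin7c followed at 103 and 106 TPM, while the large scaffolds Pclo and Bsn, added after their values were seen, were at 57.2 and 55.9 TPM and at 8.02 and 6.45 TPM. Of the 16 Rab GTPases and effectors, 12 were detected, led by Rab3c at 354 and 367 TPM and Sytl2 at 166 and 163 TPM. Rab3a, the main Rab of synaptic vesicles and also added after its value was seen, was at 163 and 132 TPM. Its log2 ratio was -0.30 against a neighbour SD of 0.12. Of 13 further priming and calcium-sensing factors 8 were detected. Cadps, which primes dense-core vesicles, was at 529 and 542 TPM and Napg at 292 and 312 TPM, while Doc2a, Doc2b and Doc2g were all below 1 TPM.

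Of the 22 genes of synaptic vesicle endocytosis 21 were detected, with the clathrin heavy chain Cltc at 1290.0 and 1249.8 TPM and the dynamin Dnm3 at 499.8 and 496 TPM. All 10 genes of dense-core vesicle cargo and its processing were detected, with Scg3 at 1850.3 and 1655 TPM and Cpe at 1609 and 1703 TPM. The largest difference among the 102 was in this list, where Vgf, a neuropeptide precursor, was at 17.3 TPM in alum and 11.5 TPM in alum + KLH. Its log2 ratio was -0.56 against a neighbour SD of 0.24, and became -0.59 with a pseudocount of 0.1 TPM. The median log2 ratio of the 9 lists lay between -0.10 for other vesicle membrane proteins and 0.070 for vesicular transporters.

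**Figure D4:**
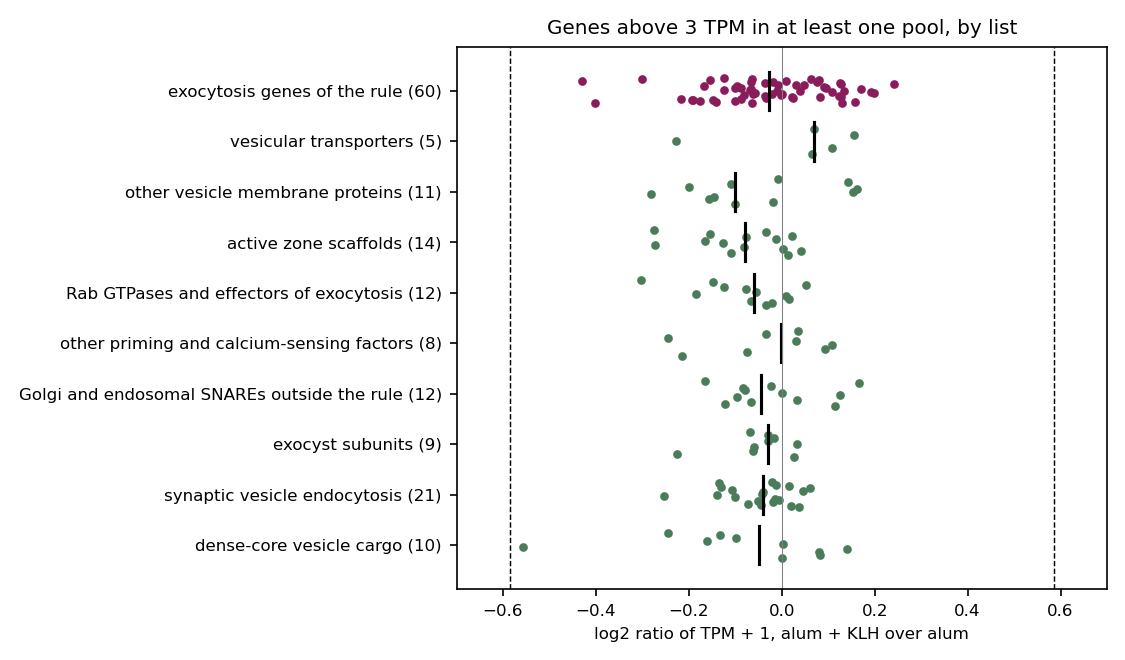
Log2 ratio of TPM + 1 in alum + KLH over alum (horizontal axis) for genes that passed 3 TPM in either pool, 1 point per gene, in the exocytosis genes and in each of the 9 further lists (number of genes in brackets, vertical bars at the medians, points spread vertically for legibility). No point reaches the dashed lines at 1.5-fold, and Vgf at -0.56 comes closest.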

How the data were processed

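RNA from DRG neurons of 10 mice per group was pooled into 1 stranded mRNA library per group and sequenced as paired-end reads. Adapters and low-quality bases were trimmed with cutadapt, and the authors quantified reads with kallisto on the annotated mouse transcriptome (mm10); tool versions are not given in the sources used here. The values deposited by the authors are TPM for RefSeq transcripts, scaled to 1000000 per library. The study states a minimum read depth per sample. No counts are in the files, so the number of reads behind each value and its counting error are unknown.

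TPM was summed per gene symbol. Genes that passed 3 TPM, a threshold the study used too, in either pool were compared as log2 of (TPM + 1), with a limit of 1.5-fold in place of a test. Neighbour SDs used the 500 genes nearest in mean log2(TPM + 1). Values are given for the highest 2 members of each family, 15 core release genes, members past the limit, and those beside 3 TPM or at 0; values of other members, and of Pclo, Bsn, Rab3a, Doc2 genes and Vgf, were added after they were seen. Of other lists the highest 2 genes are named. The values of some members are not reported here. The members, lists and limits were chosen with earlier results of these data known. Positions, exons and 31-base stretches came from GENCODE M21 (GRCm38), in which all 72 members were found through symbols and RefSeq identifiers. Alternatives changed the threshold, pseudocount, filter, gene value, scaling and fold limit. Python 3.11.15, numpy 2.4.6, pandas 2.3.3 and matplotlib 3.10.9 were used.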

Additional observations from a re-analysis of the deposited data

How the results depend on the processing

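With 1 library per group no replicate could be left out. No paired analysis was possible because each group holds 1 library. The count of members past 1.5-fold stayed at 0 in both directions with pseudocounts of 0.1 and 0.5 TPM, with thresholds of 1 and 10 TPM, without a filter, with protein-coding transcripts, under both rescalings and at 2-fold. In these settings 0.222% to 1.15% of all genes passed with the higher and 0.658% to 1.97% with the lower value in alum + KLH. With the highest transcript of each gene in place of the sum the count became 1 lower member, Stx16, at -0.79. Of all genes, 1.89% were lower and 1.22% higher at that setting. The highest Stx16 transcript was NM_001102425 at 53.0 TPM in alum and NM_001102424 at 30.3 TPM in alum + KLH. NM_001102425 alone had a log2 ratio of -0.96, and the sum over all Stx16 transcripts -0.0089. With the limit at 0.32 on the log2 scale the count was 2 lower members, beside 5.39% of all genes lower and 2.29% higher. The median log2 ratio over the members was -0.0090 with the pools scaled to a median ratio of 1 and -0.11 relative to Hprt, which moves every gene by the Hprt ratio, and over all genes -0.0020 and -0.10. Of 360 combinations of a detected member and an alternative, 3 moved by more than the neighbour SD, all with the highest transcript: Stx16, Stx2 (to -0.55) and Stxbp5l (from 0.13 to -0.037). Most of these combinations could not move that far, so the count is no measure of robustness. The log2 scaling factors, -0.019 and 0.085, are smaller in size than the lowest neighbour SD, 0.11 for Stx2. The highest transcript and the sum are the same value for genes with 1 transcript. Among the 102 other pathway genes, alternatives chosen after seeing the data gave 1 lower gene past the limit in place of 0 in 4 settings: Vgf with a pseudocount of 0.1 TPM, relative to Hprt (-0.64) and with the limit at 0.32, and Sytl3 with the highest transcript. Of all genes, 1.92%, 1.97%, 5.39% and 1.89% were lower past the limit in these 4 settings, in the same order. Members just above 3 TPM have neighbour SDs of up to 0.53, and Syt10, just below it, has 0.72, so small differences there cannot be seen.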
